A study of Mus musculus with 6 samples.

Results

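High mobility group (HMG) proteins are small, abundant chromatin proteins without enzymatic activity. The 9 genes described here, of 51912 in the deposited count table, were taken by gene symbol. They were Hmgn1, Hmgn2, Hmgn3 and Hmgn5 of the HMGN family, Hmga1 and Hmga2 of the HMGA family, and Hmgb1, Hmgb2 and Hmgb3 of the HMGB family. The set was selected on measured values, since it was proposed with the counts under RGFP966 and vehicle already compared. Its differences between these groups are therefore a description, without p-values, and support nothing further. RNA was sequenced from EL4 cells, a mouse T lymphocyte line of lymphoma origin labelled wild type. One group received 10 µM RGFP966, which inhibits HDAC3, a histone deacetylase, and the other vehicle, both for 24 h, with 3 libraries each. Separate cultures are not mentioned in the labels, so p-values measure only the spread between libraries, which may be technical.

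HMGN proteins bind the nucleosome core and reduce compaction by linker histone H1. HMGA proteins carry AT hooks, which grip the minor groove of AT-rich DNA. HMGB proteins bend DNA with a pair of HMG boxes, and HMGB1 released from dying cells acts as an alarm signal through receptors such as TLR4 and RAGE. In lymphocytes HMGB1 and HMGB2 are known as cofactors of the RAG recombinase.

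Libraries held 12935443 to 14768540 counts with RGFP966 and 15380331 to 16451017 with vehicle (exact permutation test, two-sided, p = 0.1, which 3 against 3 libraries cannot go below). Hdac3, the gene of the drug's target, averaged 85.9 CPM (counts scaled to a common library total) with RGFP966 and 89.1 CPM with vehicle (log2 fold change -0.05, adjusted p = 0.482 in edgeR's quasi-likelihood test). The 13 T lymphocyte markers summed to 2227 to 2294 CPM with RGFP966 and 2237 to 2258 CPM with vehicle. At an adjusted p under 0.05 in edgeR, of 12 tested 4 were higher (Cd2, Trbc2, Cd5, Trac) and 3 lower (Lat, Cd247, Zap70). Over all genes tested 11.4% were higher and 11.9% lower. For Cd247, other genes overlap 60.3% of the exonic bases, with the largest overlap from Pou2f1 on the other strand. The submitters' extraction text mentions retina, but the 12 retina markers summed to 5.00 to 5.56 CPM with RGFP966 and 4.84 to 5.18 CPM with vehicle. Crx, Gnat1 and Rpe65 had 0 counts in all libraries. Pde6b averaged 2.30 and 2.86 CPM, and Sag 1.46 and 1.27 CPM, with RGFP966 and vehicle. Macrophage markers summed to 12.3 to 12.9 and 12.2 to 13.8 CPM with RGFP966 and vehicle, and erythroid markers to 0.955 to 1.07 and 0.783 to 1.16 CPM. Of the macrophage markers Adgre1 had 0 counts. Lyz2 averaged 7.87 and 8.26 CPM, Cd68 3.16 and 3.93 CPM, and Itgam 1.49 and 0.763 CPM, with RGFP966 and vehicle. The 4 fibroblast markers summed to 54.2 to 56.6 CPM with RGFP966 and 44.1 to 45.1 CPM with vehicle, nearly all of it Pdgfra. Col1a2 averaged 0.151 and 0.0217 CPM, and Dcn 0.0740 and 0.0217 CPM, with RGFP966 and vehicle. The part of these markers in the results was not tested. In such bulk RNA, fewer cells of a type and less RNA per cell cannot be told apart.

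Promoters of 5 members are shown because Hmgn1 and Hmgn2, close relatives, differed in opposite directions between groups, while Hmga1, Hmgb2 and Hmgb3 were lower together with RGFP966. Each runs 5′ to 3′ from 250 bases before to 50 bases after a RefSeq start (build GRCm38.p6), with every match to a searched motif in capitals.
Hmgn1, chr16:96127676-96127975, minus strand: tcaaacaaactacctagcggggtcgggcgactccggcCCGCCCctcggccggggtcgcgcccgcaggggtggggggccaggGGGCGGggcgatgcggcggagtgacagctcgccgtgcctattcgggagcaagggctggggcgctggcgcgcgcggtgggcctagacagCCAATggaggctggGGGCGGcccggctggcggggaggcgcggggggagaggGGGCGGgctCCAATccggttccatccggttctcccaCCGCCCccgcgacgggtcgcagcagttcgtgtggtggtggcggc
Hmgn2, chr4:133967942-133968241, minus strand: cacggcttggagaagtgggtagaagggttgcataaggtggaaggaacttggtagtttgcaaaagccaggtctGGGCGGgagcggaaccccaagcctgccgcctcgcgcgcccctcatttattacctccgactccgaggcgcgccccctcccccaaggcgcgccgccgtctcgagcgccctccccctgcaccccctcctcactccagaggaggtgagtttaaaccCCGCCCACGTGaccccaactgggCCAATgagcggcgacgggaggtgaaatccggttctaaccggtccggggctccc
Hmga1, chr17:27556324-27556623, plus strand: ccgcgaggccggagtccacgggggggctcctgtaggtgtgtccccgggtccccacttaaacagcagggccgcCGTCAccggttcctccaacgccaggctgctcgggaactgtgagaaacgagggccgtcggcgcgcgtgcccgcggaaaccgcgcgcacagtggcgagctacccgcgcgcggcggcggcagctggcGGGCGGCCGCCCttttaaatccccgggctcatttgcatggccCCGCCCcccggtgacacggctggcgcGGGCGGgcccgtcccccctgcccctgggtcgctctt
Hmgb2, chr8:57511593-57511892, plus strand: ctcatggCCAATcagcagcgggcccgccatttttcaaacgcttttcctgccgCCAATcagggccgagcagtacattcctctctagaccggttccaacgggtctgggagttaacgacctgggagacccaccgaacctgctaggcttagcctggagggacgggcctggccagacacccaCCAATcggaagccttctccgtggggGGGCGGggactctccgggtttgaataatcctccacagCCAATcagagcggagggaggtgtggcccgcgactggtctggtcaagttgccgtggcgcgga
Hmgb3, chrX:71555667-71555966, plus strand: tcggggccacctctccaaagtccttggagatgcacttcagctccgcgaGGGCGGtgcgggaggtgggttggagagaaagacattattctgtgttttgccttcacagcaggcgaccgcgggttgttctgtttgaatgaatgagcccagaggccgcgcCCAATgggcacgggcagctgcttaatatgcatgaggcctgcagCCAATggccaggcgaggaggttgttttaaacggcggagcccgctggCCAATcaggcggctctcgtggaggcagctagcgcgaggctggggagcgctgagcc

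The 8 motifs, searched on both strands, were the CCAAT box, spelled CCAAT, the GC box, spelled GGGCGG, the canonical E-box, spelled CACGTG, the TATA box, spelled TATAAA, and the cAMP response element core, spelled TGACG. An E2F site was searched as TTGGCGC and, in its other form, as TTCCCGC, and the ETS core as CCGGAA. RefSeq gave a promoter for 8 of the 9 members, and where it gave 2 the first is described. The Hmgb2 promoter held 4 CCAAT boxes, Hmgb3 and Hmgb1 held 3 each, and Hmgn1 and Hmgn5 held 2 each. By contrast Hmga1 and Hmga2 held 0 CCAAT boxes, with 4 and 1 GC boxes. Hmga1 and Hmgb1 each held 1 match to TGACG, and Hmga2 held 1 to TTCCCGC. Hmgn1 had the most GC boxes, 5. At its second RefSeq start Hmgb1 held 0 CCAAT boxes, 4 GC boxes, 1 E-box and 1 ETS core, with 77% GC. The Hmgn2 promoter held 1 CCAAT box, 2 GC boxes and 1 E-box, and the E-box shares a base with a GC box. Of 32851 mouse promoters of this length, 37.4% held a CCAAT box, 35.7% a GC box and 7.15% the E-box. TGACG was in 20.8% of them and TTCCCGC in 4.6%. GC content of the first promoters ran from 56.7% in Hmgn5 to 76% in Hmgn1, against a median of 52.7% over all promoters. These matches describe letters and do not show that a factor binds.

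The 9 genes together took 0.232%, 0.239% and 0.231% of the counts of RGFP966 libraries 1 to 3, against 0.257%, 0.267% and 0.264% in vehicle libraries 1 to 3, so the groups did not overlap. Hmgb2 had the highest level per kilobase of exon in the vehicle cells, 301 ± 14 CPM per kb (SD, n = 3). Below it came Hmga1 (222 ± 3.16), Hmgn2 (128 ± 2.11), Hmgb1 (84.3 ± 2.45), Hmgn1 (74.0 ± 3.73), Hmgn5 (55.2 ± 4.28) and Hmgb3 (47.8 ± 1.16 CPM per kb). No neighbours in this order of levels overlapped across the 3 vehicle libraries. Hmga2 followed at 0.072 ± 0.021 CPM per kb, and Hmgn3 had no counts. Exon lengths join all annotated isoforms (5.02 kb for Hmgb1), which lowers the level per kb of any gene whose long isoforms are rare. Isoform use was not measured.

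**Figure D1:**
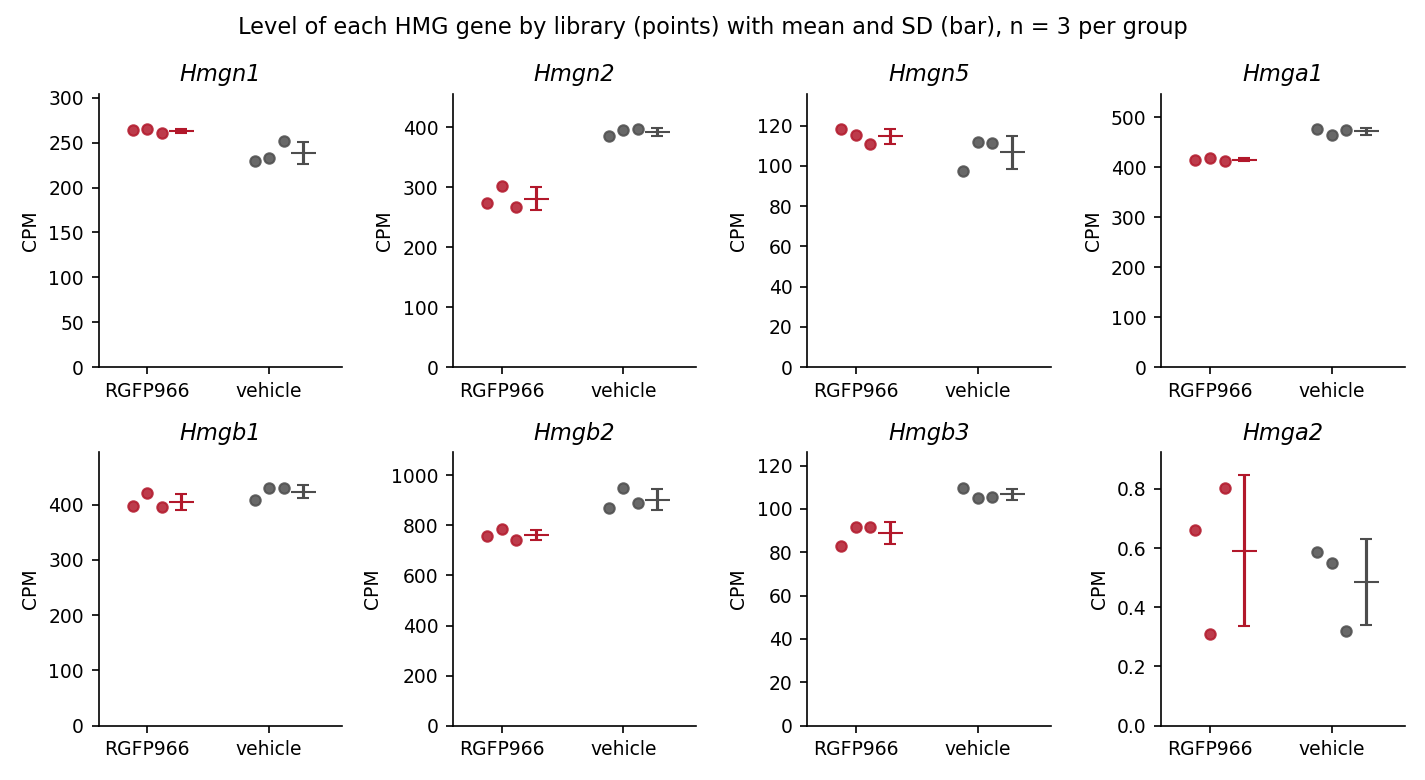
Level of 8 HMG genes in CPM (y axis, from 0) in each RGFP966 and vehicle library (points), with the mean and SD of 3 libraries beside them. Hmgn2, Hmga1, Hmgb2 and Hmgb3 lay lower in all RGFP966 libraries and Hmgn1 higher, while Hmga2 stayed under 1 CPM.

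Within the HMGN family the 2 abundant genes went opposite ways. Hmgn2 (chromosome 4, 133964738 to 133968650, minus strand) had 273, 302 and 268 CPM in RGFP966 libraries 1 to 3, against 385, 395 and 397 CPM in vehicle libraries 1 to 3. All RGFP966 libraries lay below all vehicle libraries, with means of 281 ± 18.6 and 392 ± 6.45 CPM (SD, n = 3 each). RGFP966 library 2 was the highest of its group. This was the largest difference among the members, a log2 fold change of -0.48 ± 0.04 (SE), or -28.4%. Across all tested genes the 5th percentile of the log2 fold change was -0.37.

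Hmgn1 (chromosome 16, 96120618 to 96127729, minus strand) had 264, 265 and 260.5 CPM with RGFP966, against 229.9, 233 and 252 CPM with vehicle. Its groups did not overlap, with RGFP966 above, and its log2 fold change was 0.14 ± 0.04 (SE), or 10.5%. Vehicle library 3 was the closest to the RGFP966 libraries. The SD was 0.92% of the mean with RGFP966 and 5.04% with vehicle, where counting error alone gives 1.66% and 1.63%.

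Hmgn5, an X-linked member with a long acidic tail (chromosome X, 109004534 to 109013404, minus strand), had 118, 115 and 111 CPM with RGFP966, against 97.3, 112 and 111 CPM with vehicle. Vehicle library 1 was the low one and the other libraries of both groups overlapped, for a log2 fold change of 0.10 ± 0.05 (SE). Hmgn3 (chromosome 9, 83109948 to 83146685, minus strand) had 0 counts in all 6 libraries. A count of 0 allows up to 3 counts a library, or 0.203 to 0.232 CPM with RGFP966 and 0.182 to 0.195 CPM with vehicle. Other genes overlap 15.3% of the exonic bases of Hmgn3, with the largest overlap from Gm29054, a predicted gene on the opposite strand.

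Hmga1 (chromosome 17, 27556497 to 27563674, plus strand), an architectural protein gene of proliferating and embryonic cells, had 415, 418 and 412 CPM with RGFP966, against 476, 464 and 475 CPM with vehicle. The groups did not overlap, and spread was small in both, at 0.68% and 1.42% of the mean. Its log2 fold change was -0.19 ± 0.04 (SE), or -12.1%. Its paralogue Hmga2 (chromosome 10, 120361275 to 120476469, minus strand), a classical target of let-7 microRNAs, had 9, 4 and 12 counts with RGFP966 and 9, 9 and 5 counts with vehicle. That is 0.592 ± 0.254 and 0.486 ± 0.145 CPM, overlapping groups, and the gene did not pass the filter on low counts.

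In the HMGB family, Hmgb2 and Hmgb3 were lower with RGFP966 and Hmgb1 differed least. Hmgb2 (chromosome 8, 57511907 to 57515999, plus strand), whose transcripts are typical of dividing cells, had 757, 785 and 743 CPM with RGFP966, against 871, 951 and 888 CPM with vehicle. Groups did not overlap, with means of 762 ± 21.4 and 903 ± 42.1 CPM (SD, n = 3 each) and a log2 fold change of -0.25 ± 0.04 (SE), or -15.7%. Hmgb3 (chromosome X, 71555918 to 71560676, plus strand), known from blood progenitors, had 82.9, 91.7 and 91.9 CPM with RGFP966, against 109.8, 105 and 105 CPM with vehicle. It too had groups that did not overlap, with RGFP966 below and a log2 fold change of -0.27 ± 0.05 (SE), or -16.8%.

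Hmgb1 (chromosome 5, 149046702 to 149184489, minus strand) had 398, 422 and 395 CPM with RGFP966, against 409, 431 and 431 CPM with vehicle. RGFP966 library 2 lay above vehicle library 1, so the groups overlapped. The log2 fold change was -0.07 ± 0.04 (SE).

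**Figure D2:**
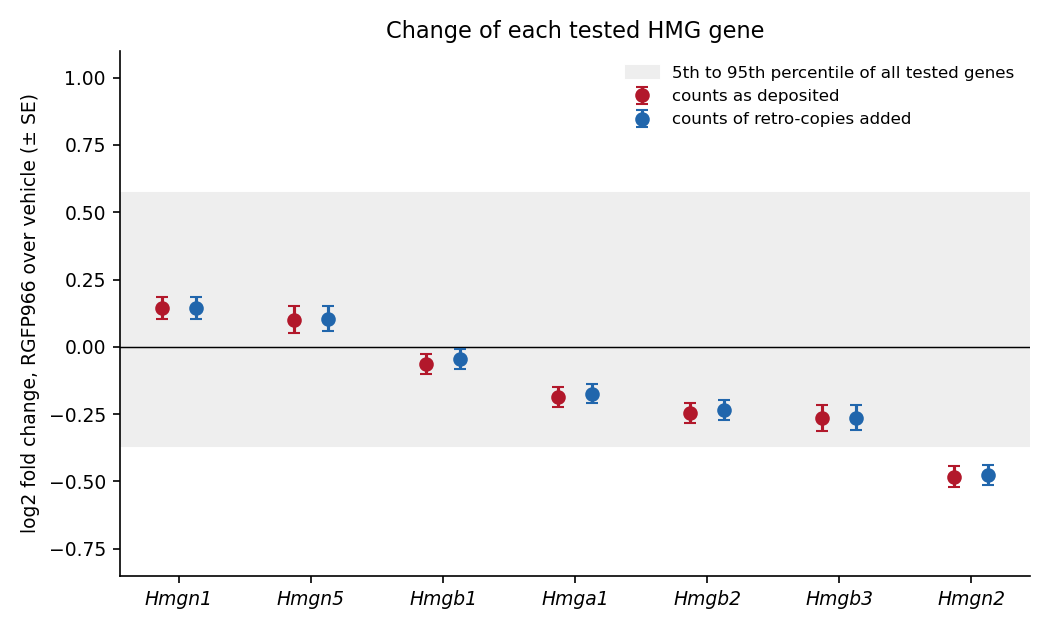
Log2 fold change, RGFP966 over vehicle, with its SE (y axis) for the 7 HMG genes that passed the low-count filter, from the counts as deposited (red) and with counts of retro-copies added (blue), over the 5th to 95th percentile of all tested genes (grey). Hmgn2, at -0.48, lies outside the grey band, and with the copies added Hmgb1 was at -0.05 in place of -0.07.

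In all, 13484 genes were tested by edgeR's quasi-likelihood test. At an adjusted p under 0.05, RGFP966 was above vehicle in 11.4% and below it in 11.9%, 23.3% in all. With upper-quartile scaling the calls were 1838 higher and 1270 lower, against 1543 and 1602. Of the 9 members 7 passed the filter on low counts. Of these, Hmgn1 was among the higher calls and Hmgn2, Hmga1, Hmgb2 and Hmgb3 were among the lower calls, while Hmgn5 and Hmgb1 were not called. All RGFP966 libraries lay above all vehicle libraries in 1 member, beside 17.8% of all tested genes, and below them in 4 members, beside 18.5%. Groups that did not overlap made up 36.3% of all tested genes. The members' median log2 fold change was -0.19, beside -0.0019 for all tested genes. Since the members were proposed with this comparison known, nothing is read from these counts.

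Ratios of counts within a library do not depend on how libraries are scaled. They pair members selected on this comparison, so the ratios too are only a description. There were 0.968, 0.877 and 0.973 Hmgn1 counts per Hmgn2 count in RGFP966 libraries 1 to 3, against 0.597, 0.589 and 0.635 in vehicle libraries 1 to 3. The groups did not overlap, and all 6 libraries held fewer Hmgn1 than Hmgn2 counts. For Hmgb2 over Hmgb1 the ratio was 1.90, 1.86 and 1.88 with RGFP966, against 2.13, 2.21 and 2.06 with vehicle. Hmgb3 over Hmgb1 gave 0.208, 0.217 and 0.232 with RGFP966, against 0.268, 0.244 and 0.245 with vehicle. Both HMGB ratios were lower in every RGFP966 library. Their size depends on how reads shared with genomic copies of these genes, described below, were assigned. With the counts of such copies added, Hmgb2 averaged 837 and 985 CPM, and Hmgb1 633 and 653 CPM, with RGFP966 and vehicle. Hmgn5 over Hmgn1 overlapped, with means of 0.436 ± 0.0111 and 0.449 ± 0.0293 (SD, n = 3 each).

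**Figure D3:**
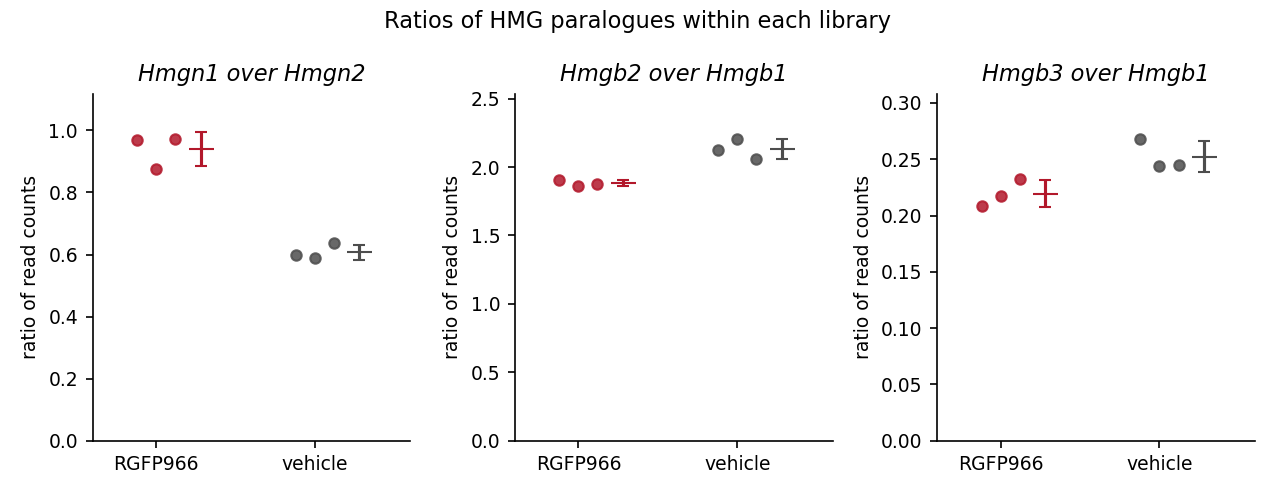
Ratio of read counts of 2 HMG paralogues (y axis, from 0) within each RGFP966 and vehicle library (points), with mean and SD of 3 libraries. Hmgn1 over Hmgn2 was 0.939 ± 0.0542 with RGFP966 and 0.607 ± 0.025 with vehicle.

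HMG genes have many retro-copies, which are intronless genomic copies of a messenger RNA, and reads can be shared with them. Searching annotated transcripts for processed pseudogenes and intronless or retrogene-tagged coding genes found 186 copies at 80% identity or more over at least 200 bases, of which 68 had a count. Hmgb1 had 120, Hmgn2 23, Hmgb2 15, Hmgb3 12, Hmgn1 11, Hmgn5 3, and Hmga1 and Hmga2 1 each. The share of a member's 50-base transcript words found in any other gene was 55.0% for Hmga1, nearly all in Hmga1b, 25.4% for Hmgn2, mostly in Gm10282, 25.02% for Hmgb3, 22.7% for Hmgb1, 18.7% for Hmgb2, 18.6% for Hmgn5, 9.82% for Hmgn3, 4.33% for Hmgn1 and 2.73% for Hmga2. Counts for the members with high shares are therefore uncertain.

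Stretches of coding sequence are shown for the 4 copies with the most counts, beside their members. Each is 60 bases long, 5′ to 3′ on the coding strand, from GENCODE M21 transcripts, with differing bases in capitals.
Hmgn2, chromosome 4, coding bases 1 to 60: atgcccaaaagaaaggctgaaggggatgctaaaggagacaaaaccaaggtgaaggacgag
Gm10282, chr8:72305122-72305181, minus strand: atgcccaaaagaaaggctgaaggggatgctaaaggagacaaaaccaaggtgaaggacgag
Hmga1, chromosome 17, coding bases 1 to 60: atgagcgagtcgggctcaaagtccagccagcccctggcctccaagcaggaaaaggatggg
Hmga1b, chr11:120762889-120762948, plus strand: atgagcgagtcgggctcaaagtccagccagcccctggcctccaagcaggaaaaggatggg
Hmgb1, chromosome 5, coding bases 1 to 60: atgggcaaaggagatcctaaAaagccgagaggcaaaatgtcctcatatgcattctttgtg
Gm15387, chr15:74094274-74094333, minus strand: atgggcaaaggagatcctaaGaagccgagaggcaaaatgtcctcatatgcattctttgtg
Hmgb2, chromosome 8, coding bases 525 to 584: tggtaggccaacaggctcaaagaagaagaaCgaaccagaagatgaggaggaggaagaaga
Gm4739, chr10:26108313-26108372, plus strand: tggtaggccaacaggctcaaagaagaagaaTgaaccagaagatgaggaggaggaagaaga

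Counted from 1 at the start codon, the difference shown is A21G for Gm15387 against Hmgb1 and C555T for Gm4739 against Hmgb2. Gm15387 had this 1 difference in 648 coding bases and Gm4739 2 in 633. The Gm10282 and Hmga1b stretches were identical to those of their members. The copies still drew counts. Those of Hmgb1 summed to 218, 238 and 227 CPM with RGFP966, against 218, 239.6 and 229.7 CPM with vehicle, and overlapped between groups. Relative to the counts of Hmgb1 itself that was 0.562 ± 0.0121 with RGFP966 and 0.5405 ± 0.0135 with vehicle (SD, n = 3 each). Hmga1b, at 99.8% identity over 1602 bases, averaged 82.0 ± 3.73 CPM with RGFP966 and 88.8 ± 5.01 CPM with vehicle (SD, n = 3 each), with overlapping groups.

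Of 27 copies tested in edgeR, 2 were called, beside 23.3% of all genes tested, and 25 were not. Both called were copies of Hmgn2 and lower with RGFP966. Gm10282, an annotated coding retrogene of Hmgn2 at 99.3% identity over 1151 bases, had 68.1, 66.9 and 70.1 CPM with RGFP966, against 90.8, 102 and 90.5 CPM with vehicle. The groups did not overlap, and its log2 fold change was -0.47 ± 0.05 (SE), beside -0.48 for Hmgn2. Hmgn2-ps1 averaged 8.82 CPM with RGFP966 and 13.8 CPM with vehicle, a log2 fold change of -0.65 ± 0.13 (SE). Both share sequence with Hmgn2, so these values are not independent of it.

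Copies relative to their member were also compared within libraries. All Hmgn2 copies held 0.318 ± 0.0235 of the Hmgn2 count with RGFP966 and 0.311 ± 0.0188 with vehicle, and Hmga1b 0.198 ± 0.0083 and 0.188 ± 0.0099 of the Hmga1 count, with overlapping groups (SD, n = 3 each). Gm15387 held 0.214 ± 0.0125 of the Hmgb1 count with RGFP966 and 0.199 ± 0.0046 with vehicle, and the groups did not overlap. Nor did they for Gm4739 over Hmgb2, 0.082 ± 0.0016 with RGFP966 and 0.0756 ± 0.0053 with vehicle. For all copies over Hmgb2, 0.0992 ± 0.0031 and 0.091 ± 0.0055, they only just failed to overlap. There RGFP966 library 1 and vehicle library 2 both rounded to 0.096. The other gaps were narrow too. The lowest RGFP966 and highest vehicle ratios were 0.2037 and 0.2035 for Gm15387, and 0.081 and 0.0803 for Gm4739. For all copies over Hmgb1 the groups overlapped. Gm15387 had 86.5 and 84.2 CPM, and Gm4739 62.5 and 68.4 CPM, with RGFP966 and vehicle. When the copies' counts were added to their member, an alternative chosen after the data were seen, the log2 fold changes were -0.48 for Hmgn2, -0.26 for Hmgb3, -0.24 for Hmgb2, -0.17 for Hmga1, -0.05 for Hmgb1, 0.10 for Hmgn5 and 0.14 for Hmgn1.

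**Figure D4:**
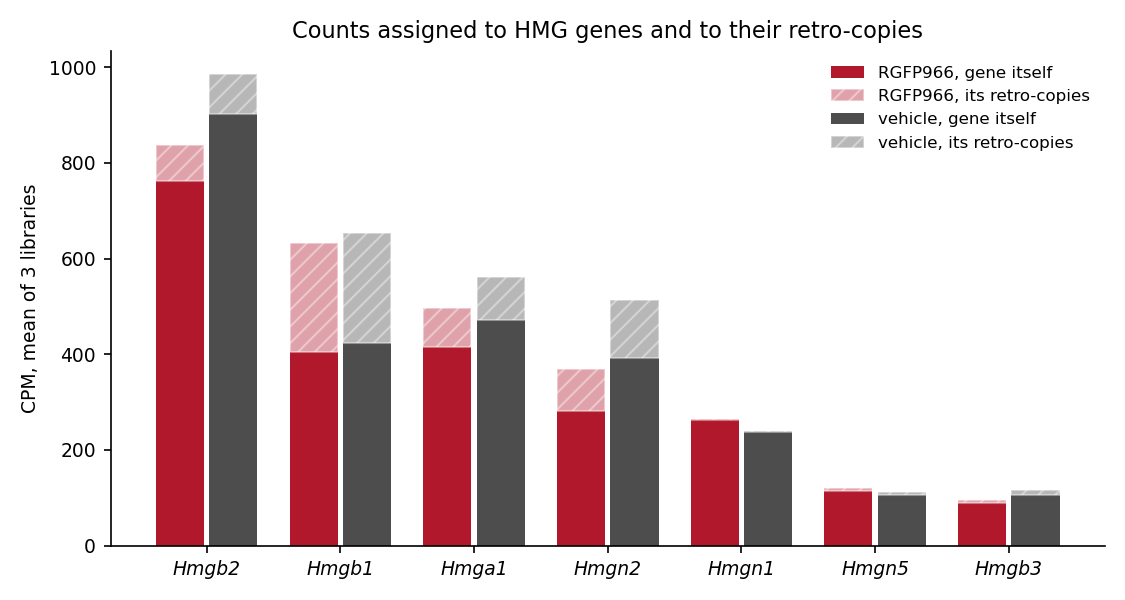
Mean CPM of 3 libraries (y axis, from 0) counted on 7 HMG genes (solid) and, stacked above, on their retro-copies (hatched), for RGFP966 (left bar) and vehicle (right bar). Copies of Hmgb1 drew the largest stacked share, with sums of 218 to 238 CPM in RGFP966 libraries and 218 to 239.6 CPM in vehicle libraries.

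Genes that work with HMG proteins were taken from 8 lists of 97 genes in the table, of which 69 were tested. Past the same threshold in edgeR's test 7 were higher and 17 lower under RGFP966 and 45 were not called, beside 11.4% and 11.9% of all genes. Their median log2 fold change was -0.042. The lists, like the members, were drawn up with results of this comparison known, so their counts and p-values describe these libraries and are no independent evidence.

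In the list for HMGB export, acetylation and the SET complex, a complex that contains HMGB2, 6 of 11 tested genes were lower. Over all genes tested that share was 11.9%. The other 5 were not called (median log2 fold change of the list -0.16). Kat2b, the acetyltransferase PCAF, fell to 34.2 CPM with RGFP966, against 45.2 CPM with vehicle (log2 fold change -0.40 ± 0.07 SE, edgeR adjusted p = 4.55e-06). Its paralogue Kat2a fell by 0.21 on the log2 scale (edgeR adjusted p = 1.44e-04). Set itself fell to 641 CPM, against 708 CPM with vehicle (-0.14 ± 0.04 SE, edgeR adjusted p = 0.00200), and 29.3% of its sequence is shared with other genes. The histone chaperone gene Anp32b, with 12.1% shared sequence, fell by 0.16 (adjusted p = 7.23e-04). Apex1, an endonuclease gene, fell by 0.47 (edgeR adjusted p = 8.14e-04). Other genes overlap 61.7% of its exonic bases, with the largest overlap from Pip4p1 on the other strand. Anp32a (0.05, edgeR adjusted p = 0.370) and Nme1 (-0.04, edgeR adjusted p = 0.754) of the same list were not called. Trex1 had 0 counts in all libraries, but 100% of its exonic bases are overlapped, most by Atrip on the same strand.

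Among HMGN modifiers and nucleosome partners, 6 of 12 tested genes were lower, 1 was higher and 5 were not called (median log2 fold change -0.07). The shares of all genes tested were 11.9% lower and 11.4% higher. The paralogous kinases MSK1 and MSK2, known to phosphorylate HMGN1 and histone H3, went opposite ways. Rps6ka5, the gene of MSK1, rose to 24.9 CPM with RGFP966, against 18.9 CPM with vehicle (0.40 ± 0.09 SE, edgeR adjusted p = 4.50e-04). Rps6ka4, that of MSK2, fell to 40.5 CPM, against 51.6 CPM with vehicle (-0.35 ± 0.06 SE, edgeR adjusted p = 1.97e-05). Other annotated genes overlap 19.8% of its exonic bases. Npm3, a nucleoplasmin gene, fell to 52.3 CPM, against 72.7 CPM with vehicle (-0.48 ± 0.06 SE, adjusted p = 5.53e-09, 25.6% shared sequence). The nucleolin gene Ncl fell by 0.11 (adjusted p = 0.0132), but its adjusted p was 0.0885 without RGFP966 library 1, 0.147 without RGFP966 library 3 and 0.0692 without vehicle library 3, in a range from 0.00271.

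In the list of HMG-box chromatin proteins 3 of 14 tested genes were lower, beside 11.9% of all genes tested. The other 11 were not called (median log2 fold change of the list -0.03). Ubtf, which drives ribosomal RNA transcription, fell by 0.18 (edgeR adjusted p = 1.93e-04), and the histone methyltransferase gene Kmt2d by 0.20 (adjusted p = 0.00119). Hmgxb4 fell by 0.16 (adjusted p = 0.0265), a call lost with 0.0519, 0.105 and 0.0619 without RGFP966 libraries 1, 2 and 3, with 0.103 and 0.0667 without vehicle libraries 1 and 3, with 0.0647 under upper-quartile scaling and with 0.0833 in DESeq2, in a range from 0.0196. The most abundant of the list, the FACT subunit gene Ssrp1, had 505 CPM with RGFP966 and 483 CPM with vehicle (0.06, adjusted p = 0.209). Hmgb4, a testis relative of the HMGB genes, had 0 counts in all libraries.

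Among sequence-specific HMG-box factors, 1 of 9 tested genes was higher, 1 lower and 7 not called (median log2 fold change -0.06). Of all genes tested 11.4% were higher and 11.9% lower. Sox4, a factor of lymphoid progenitors, rose to 131 CPM with RGFP966, against 103 CPM with vehicle (0.34 ± 0.05 SE, edgeR adjusted p = 6.89e-08). Other genes overlap 54.6% of its exonic bases, with the largest overlap from Gm26735 on the other strand. The repressor gene Cic fell by 0.14 (adjusted p = 0.0111), but had 0.105 without RGFP966 library 2 and 0.0660 and 0.0887 without vehicle libraries 1 and 3, in a range from 0.00118. Tcf7, the gene of the T cell factor TCF1, measured 0.08 (adjusted p = 0.0738), and was called in 5 alternatives, down to 0.0141 with upper-quartile scaling, in a range up to 0.253.

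**Figure D5:**
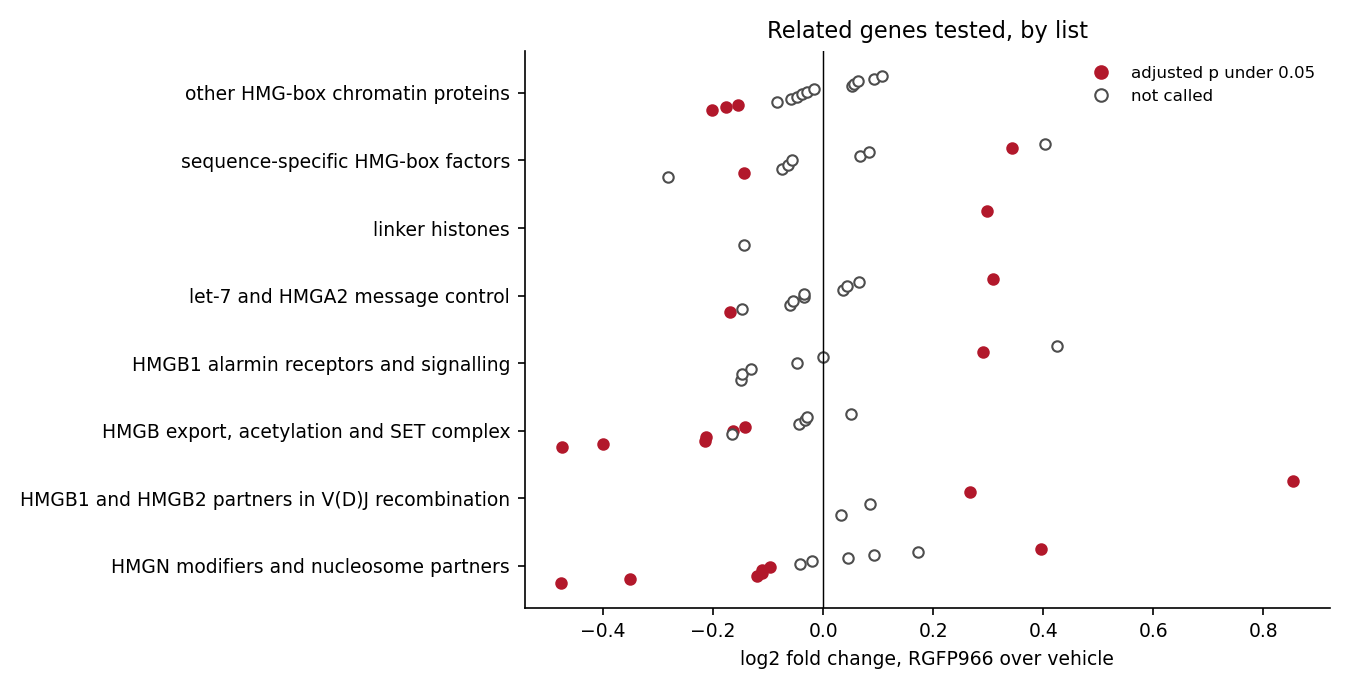
Log2 fold change, RGFP966 over vehicle (x axis), of each tested gene in 8 lists of HMG-related genes (rows). Filled points passed an adjusted p of 0.05 in edgeR's quasi-likelihood test, 7 higher and 17 lower, and open points did not.

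Linker histone H1.0, which HMGN and HMGA proteins oppose on nucleosomes, went up. H1f0 rose to 368 CPM with RGFP966, against 299 CPM with vehicle (log2 fold change 0.30 ± 0.04 SE, edgeR adjusted p = 1.43e-07). It was 1 of 2 linker histone genes tested of 7 in the table (median log2 fold change 0.08). The other, Hist1h1c, had 3.22 and 3.55 CPM with RGFP966 and vehicle. Transcripts of replication-dependent histone genes lack poly(A) tails, and the sources used here do not give how RNA was selected.

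Of the genes that handle let-7 and Hmga2 messages, 1 of 10 tested was higher, 1 lower and 8 were not called (median log2 fold change -0.03). The shares of all genes tested were 11.4% higher and 11.9% lower. Tut4, a uridylyltransferase that tags let-7 precursors, rose to 118 CPM with RGFP966, against 95.6 CPM with vehicle (0.31 ± 0.05 SE, edgeR adjusted p = 7.37e-07). Xpo5, which exports precursors from the nucleus, fell by 0.17 (adjusted p = 0.00194), and Ago2 measured 0.04 (adjusted p = 0.696). Lin28a and Lin28b, the inhibitors of let-7 processing, had 0 counts in all libraries.

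Among receptors for extracellular HMGB1, Ager, the gene of RAGE, averaged 2.52 CPM with RGFP966 and 2.75 CPM with vehicle, and Tlr4 0.0447 and 0.0844 CPM. Of 7 tested genes of this list 1 was higher, beside 11.4% of all genes tested, and 6 were not called (median log2 fold change of the list -0.05). Ticam1, the adaptor TRIF, rose by 0.29 (edgeR adjusted p = 0.0206), but had 0.0534 and 0.0562 without RGFP966 libraries 1 and 2, 0.0650 without vehicle library 2 and 0.0571 in DESeq2, in a range from 0.0126. Cxcr4, through which HMGB1 with CXCL12 signals, had 173 CPM with RGFP966 and 179 CPM with vehicle (-0.05, adjusted p = 0.452).

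Rag1 and Rag2, the recombinase that HMGB1 and HMGB2 assist, had 0 counts in all libraries. Of the 4 tested genes of V(D)J recombination 2 were higher, beside 11.4% of all genes tested (median log2 fold change of the list 0.18). Dntt, the gene of the terminal transferase that adds bases at joints, rose to 73.4 CPM with RGFP966, against 40.6 CPM with vehicle (log2 fold change 0.85 ± 0.06 SE, edgeR adjusted p = 1.3e-16). Prkdc, the catalytic subunit gene of DNA-dependent protein kinase, rose by 0.27 (edgeR adjusted p = 5.86e-05). Xrcc6, the gene of its partner Ku70, measured 0.09 (adjusted p = 0.201).

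Cell division genes, with which Hmgb2 and Hmga1 levels usually move, differed too. Of 21 tested, 12 were lower with RGFP966, beside 11.9% of all genes tested, and 2 were higher, beside 11.4%. The other 7 were not called by edgeR's quasi-likelihood test, and the median log2 fold change was -0.16. This list too was drawn up with earlier results of these data known. Cdc20 had 179 CPM with RGFP966 and 263 CPM with vehicle, Mki67 1028 and 1097 CPM, and Top2a, which was higher, 1146 and 1061 CPM. The summed level of the list was 7939 to 8276 CPM with RGFP966 and 8469 to 8593 CPM with vehicle. The part of this in the HMG results was not tested.

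The genes whose log2 CPM followed the most abundant member of each family most closely over the 6 libraries were found by Euclidean distance among 9151 protein-coding genes. For Hmgn2 they were Psmd9 (distance 0.0827), Cenpx (0.102) and Cuta (0.104), against a median distance of 0.609. Those nearest Hmga1 were Nhlrc2 (0.0318), Uhrf1 (0.0342) and Shc1 (0.0346), against a median of 0.279. Nearest Hmgb2 were Slain2 (0.0338), Eif4a1 (0.0384) and Acsl5 (0.0423), against a median of 0.351. These distances were taken over both groups together and were not taken within groups.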

How the data were processed

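The deposited table holds raw counts for 51912 Ensembl mouse genes in 6 libraries, 3 per group. The submitters' processing notes name HTSeq 0.6.0, HISAT2 2.1.0, Bowtie2 2.2.3, TopHat2, CASAVA and build mm10. The sources used here do not give their roles, the annotation, the strand setting or how reads with several positions were handled. Without strand, reads of a gene and its antisense partner cannot be told apart.

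Counts were fitted in edgeR 4.0.16 (R 4.3.3) with filterByExpr, TMM scaling and the quasi-likelihood F test (robust), with group as the only term. P-values were adjusted by Benjamini-Hochberg over all genes tested, and SE was derived from the F statistic (size of the log2 fold change divided by root F). CPM use scaled library totals. Alternatives used DESeq2 1.42.0, limma 3.58.1, other scalings and filters, a replicate block, and each library left out. Replicate numbers share no stated batch, and deviations of same-numbered libraries correlated at -0.018, 0.013 and 0.008, so they were not taken as pairs. Between libraries of 1 group the variance was 2.15 to 3.33 times that of counting alone (chi-square per degree of freedom).

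Symbols covered 51633 IDs. GENCODE M21, whose assembly is mm10, gave positions and exon lengths, and copies were found with BLAST+ 2.17.0. Members and lists were chosen with earlier results of these data known. Named related genes were those called, up to 4 per list by adjusted p, and the most abundant of each list, and copies were named by mean CPM (the top 4) or, for Hmgn2-ps1, after its values were seen. Also named after their values were seen were Hist1h1c, Ager, Tlr4, Hmgb4, Lin28a, Lin28b, Rag1 and Rag2. The same holds for Anp32a, Nme1, Trex1, the marker genes and the cell division genes. One further marker list is not reported here. Intervals and floors cover counting error only.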

Additional observations from a re-analysis of the deposited data

How the results depend on the processing

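The members were selected on this comparison, so their values under other settings describe the arithmetic and lend no support. In the 15 alternatives the same 5 members were called and no tested member changed sign. Log2 fold changes ran from -0.54 to -0.44 for Hmgn2, -0.29 to -0.22 for Hmgb3, -0.27 to -0.21 for Hmgb2, -0.20 to -0.16 for Hmga1, -0.10 to -0.04 for Hmgb1, 0.04 to 0.14 for Hmgn5 and 0.12 to 0.19 for Hmgn1. Related genes called higher numbered 7, but 11 at a minimum mean of 5 CPM, a filter that leaves 10000 genes tested. The cause of that shift was not tested. Leaving out 1 library gave 1238 to 1385 genes higher and 1116 to 1484 lower over the whole table, 6 to 9 related genes higher and 12 to 18 lower, and 1 member higher and 4 lower each time. With the replicate number as a block, 1667 genes were higher and 1764 lower, with 1 and 4 members and 7 and 17 related genes, and since same-numbered libraries did not deviate together the block is only an alternative fit. The median of all genes moved by less than 0.03 under any scaling. Depth limits Hmga2, with 4 to 12 counts a library, and Hmgn3, with 0, so a difference in them was not detectable.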
